A study of Rattus norvegicus with 14 samples.

Results

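Soleus muscles of rats whose tendon had been cut 1 to 4 weeks earlier were compared with control soleus muscles across all genes of a whole-genome array. The comparison used 10 of the 14 arrays of the series: 6 labelled short-term immobilized and 4 labelled control. The other 4 arrays, of muscles tenotomized for 6 to 22 weeks, entered only the estimate of the spread. The 6 short-term muscles were right soleus muscles of 6 male Sprague Dawley rats. Rats 12 and 13 had been tenotomized for 1 week, rats 25 and 27 for 2 weeks, rat 32 for 3 weeks and rat 42 for 4 weeks. The 4 control muscles were left soleus muscles of 4 other male Sprague Dawley rats, called controls 1 to 4 below. Controls 1 and 4 came from rats 62 and 61, whose right soleus had been tenotomized for 6 weeks, so these controls came from operated animals. Controls 2 and 3 came from 2 rats with no other array in the series, and the labels used here do not say whether those rats had been operated on. The groups shared no rat, they differed in side, and control ages were not in the labels, so tenotomy cannot be told apart from side or from the cohort of rats. The array is of whole muscle. Fewer cells of a type and less RNA per cell cannot be told apart in such samples.

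The soleus is a slow postural muscle of the calf that works against load for much of the day. Tenotomy removes the load on the muscle while its nerve stays intact. Muscle fibres set their gene programme through transcription factors that read nerve activity, stretch and fuel supply, through insulin and growth factor receptors that act on the AKT and mTOR kinases, and through channels and carriers that move ions, lactate, amino acids and vitamins. The cells between the fibres, among them fibroblasts, macrophages, vessels and Schwann cells, carry receptor and channel genes of their own, and all of them are measured together here.

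Signals are linear brightness values after each array was brought to a common scale. Values in the text are these signals in the order of controls 1 to 4, then the lowest, highest and median of the 6 short-term arrays. A change is the difference of mean log2 signals, short-term minus control (n = 6 and 4), with the standard error of the limma fit after ±. Values under 9.58 were raised to that floor. Of 11090 genes tested with limma, 2274 were higher in short-term muscle (20.5%) and 2395 lower (21.6%) at an adjusted p under 0.05, which together is 42.1% of genes. The scaling makes the median measured probe set level between arrays, so a small change of the median gene, -0.02 on the log2 scale, follows from it. Of the genes called, 48.7% were higher, a share that depends on the scaling. This share was 25.4% on the deposited scale, where the median gene changed by -0.31, and 23.7% with the arrays set to a common median, where it changed by -0.34. It was 42.6% with a common 75th percentile, 44.7% after quantile normalization and 56.2% with a common trimmed mean. Under all 6 scalings 1079 genes were higher (9.73%) and 1849 lower (16.7%). The change was over 2-fold for 1324 of the genes higher and 495 of the genes lower. All 6 short-term arrays lay above all 4 controls for 1487 genes (13.4%) and below them for 1677 genes (15.1%). With so many genes called, a count of a list is read against these shares. Genes named by the rule for named genes had to be called under all 6 scalings with groups that did not overlap, so that the separation of their arrays is a consequence of how they were chosen.

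Array medians were 32.3 to 49.1 in short-term muscle and 35.1 to 47.3 in controls on the deposited scale. Bacterial poly-A control transcripts, spiked into the RNA, read 82.5 to 309 on the short-term arrays and 51.3 to 72.6 on the controls. The 3' to 5' ratio of Gapdh, a measure of RNA integrity, was 1.16 to 1.61 and 1.38 to 2.78. The same ratio of beta-actin went the other way. On the log2 scale it was 0.98 to 1.95 in short-term muscle and 0.55 to 1.25 in controls. Its highest value, 1.95, was on the 2-week array of rat 27. The part of the spike-ins or of RNA integrity in the results was not tested. The 2-week array of rat 27 lay farthest from the controls for 45.8% of the 1079 genes higher and 42.6% of the 1849 genes lower under all scalings. Without it 2041 genes were higher and 2184 lower. The tissue label held: summed signals of 12 muscle fibre markers, among them slow troponins and myoglobin, were 77316 to 99454 in controls and 73442 to 109093 in short-term muscle. Of these markers none was higher and 1, Casq2, was lower. It read 3412 to 4313 in controls and 1362 to 2985 in short-term muscle, and was the dimmest of them. Others, such as Ckm at 6299 to 10611, read near the brightest deposited signal of an array, 9877 to 12419. Sums of such bright markers cannot show that fibre RNA was unchanged. Among 13 macrophage markers 12 were higher and none lower, and their sum was 1563 to 2901 in controls and 4580 to 10627 in short-term muscle. Of 12 fibroblast markers 9 were higher and none lower, with sums of 15071 to 20789 and 39485 to 71818. Endothelial markers (9 tested) gave 2 higher and 1 lower, with sums of 2855 to 3570 and 2699 to 5351. Of 4 Schwann cell and nerve markers 3 were higher, of 3 lymphocyte markers 2, and of 9 smooth muscle markers 2. The endothelial and smooth muscle shares are near the 20.5% of all genes higher. Under all 6 scalings 11 macrophage and 9 fibroblast markers stayed higher. So did 1 Schwann cell and nerve marker and 1 smooth muscle marker, but no lymphocyte or endothelial marker. Of 6 adipocyte markers 1 was higher and 1 lower, and Lep, which encodes leptin, was at the floor on all 10 arrays. None of 3 red blood cell markers was called. Many genes below are known from fibroblasts or macrophages, and the part of these cells in their changes was not tested.

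**Figure D1:**
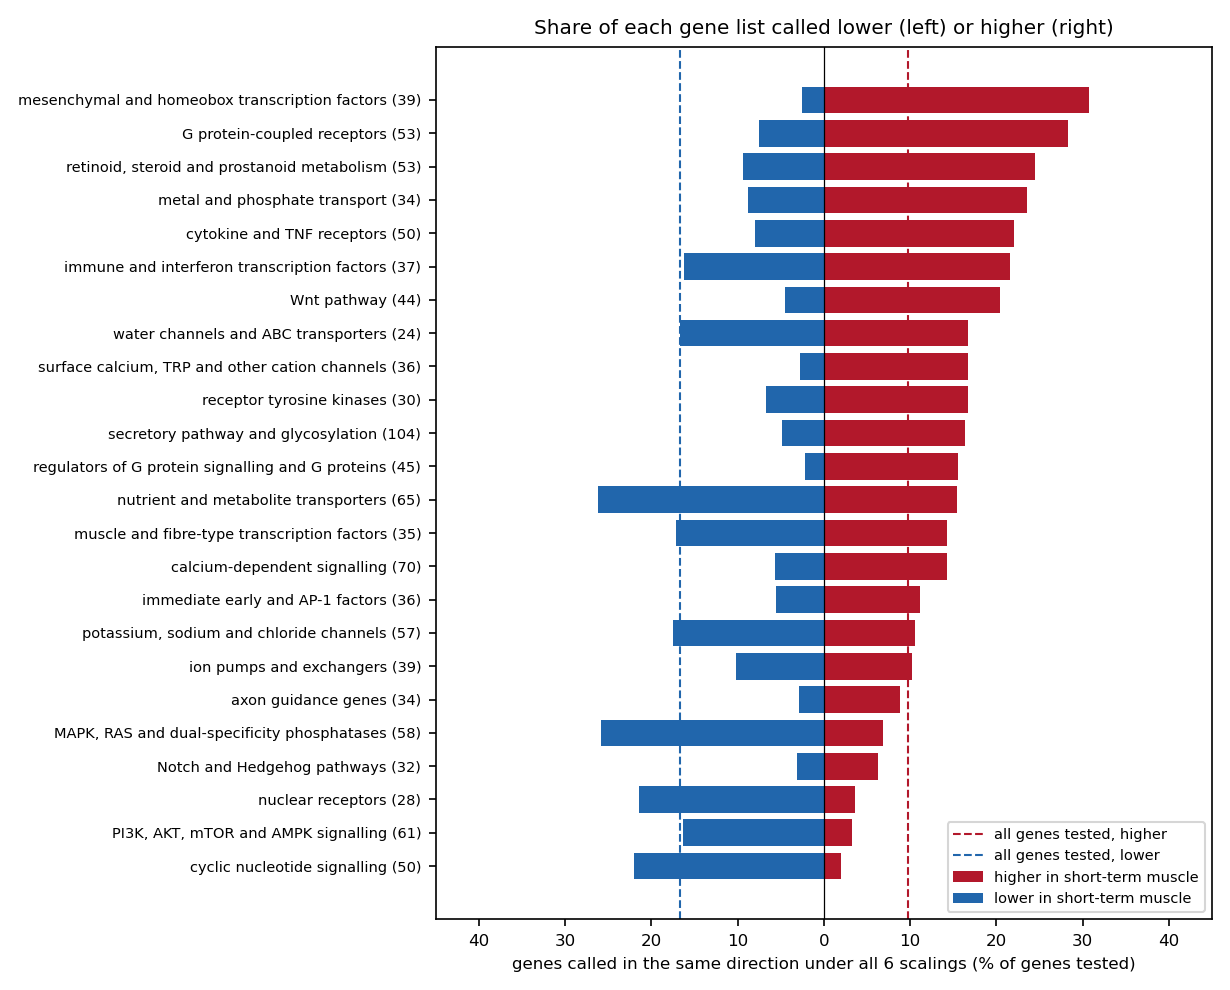
Share of the genes tested in each of 24 gene lists that were called in the same direction under all 6 scalings, in percent: higher in short-term muscle to the right, lower to the left, with the number of genes tested in brackets. Dashed lines mark the same shares over all 11090 genes, 9.73% higher and 16.7% lower. Mesenchymal and homeobox transcription factors have the longest bar to the right, and the nutrient transporter, MAPK, cyclic nucleotide and nuclear receptor lists extend farthest past the line on the left.

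Once a fixed list of common matrix genes, macrophage markers, contractile proteins, core mitochondrial enzymes and genes singled out earlier was set aside, the largest rise was in Tnn, which encodes tenascin-N, a matrix glycoprotein. It was at the floor in all 4 controls and read 221.4 to 3140.3 (median 1234) in short-term muscle, at least 95.1-fold higher (limma adjusted p = 1.0e-05). The lowest of the 6 was the 1-week array of rat 13 and the highest the 2-week array of rat 27. Lbp, the lipopolysaccharide-binding protein of the acute phase response, read 52.1, 27.97, 33.97 and 22.6 in controls and 201 to 1308 (median 472) in short-term muscle. The change was 3.93 ± 0.47 (adjusted p = 3.5e-05). Chi3l1, a secreted chitinase-like protein, read 17.9, 77.4, 33.8 and 47.5 and 223 to 559 (median 330.4), a change of 3.10 ± 0.35. Serpina3n, a secreted inhibitor of serine proteases, changed by 3.25 ± 0.43, and Pla2g2a, a secreted phospholipase A2 that releases fatty acids from membranes, by 3.16 ± 0.55.

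Ccnd2 encodes cyclin D2, which drives entry into the cell cycle. It read 11.6, 32.95, 13.7 and 10.98 in controls and 71.1 to 476 (median 263) in short-term muscle, with the 3-week array the lowest of the 6. Its change was 3.83 ± 0.47 (limma adjusted p = 4.1e-05). Mybph, a myosin-binding protein of the thick filament, was the fibre gene among the 15 largest rises. It read 56.4, 120.5, 129.5 and 267 in controls and 734 to 4038 (median 911) after tenotomy, and the highest value was that of rat 25 at 2 weeks. The change was 3.31 ± 0.50 (adjusted p = 1.6e-04). Tmem119, a membrane protein studied in bone-forming cells and microglia, rose from a mean of 20.5 to 212. Secreted and matrix-associated products made up much of the remaining top 15: Mfap2, a microfibril protein, changed by 3.78 ± 0.48, Aebp1, which binds collagen, by 3.67 ± 0.46, Ccn5, a matricellular protein, by 3.60 ± 0.45, Srpx2 by 3.79 ± 0.55 and Lrrc17 by 3.15 ± 0.47. Sfrp2 and Sfrp4 are described with the Wnt pathway.

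With the same list set aside, the 15 largest falls were smaller, between 1.94 and 2.31 on the log2 scale. Plin4, a coat protein of lipid droplets, read 1647, 2107, 2099 and 1614 in controls and 242 to 576 (median 378) in short-term muscle. Both 1-week arrays were the lowest of the 6. The change was -2.31 ± 0.24 (limma adjusted p = 1.7e-05). Several of the others act in mitochondria: Mtfp1, of the fission machinery, fell by 2.31, Eci2, an isomerase of fatty acid oxidation, by 2.29, Acot2, an acyl-CoA thioesterase, by 2.19, the carrier Slc25a34 by 2.24 and Ppif, the cyclophilin of the permeability transition pore, by 1.94. Pank1, a pantothenate kinase that begins coenzyme A synthesis, read 725, 583, 653 and 738 in controls and 124 to 282 (median 160.9) in short-term muscle. The 3-week array was the highest of the 6, and the change was -1.96 ± 0.19 (adjusted p = 1.2e-05). Lrrc39, a protein of the sarcomere's M-band, went from 4490.0, 4265, 4677 and 3479 to 749.7 to 1662 (median 953), a change of -2.02 ± 0.20. Vtcn1, a ligand that restrains T cells, read 918, 933, 1593 and 749 and 92.5 to 344 (median 247). It changed by -2.23 ± 0.36, with the 1-week array of rat 12 the lowest. Impa2, an inositol monophosphatase, fell by 2.13, Asb18, a SOCS-box protein, by 1.99 and Commd6 by 2.21. Irs2 and Etv5 are given with their groups.

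**Figure D2:**
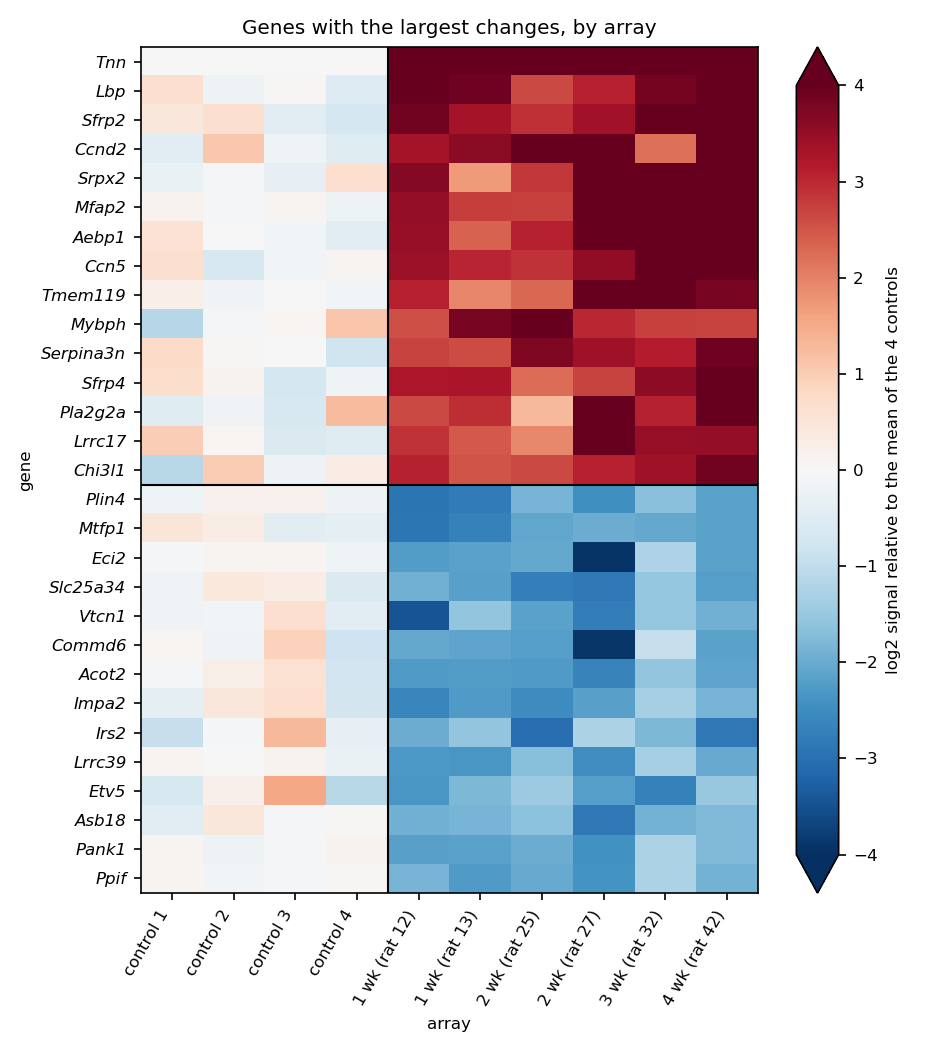
Log2 signal of the 15 genes with the largest rise and 14 of the 15 with the largest fall under the naming rule, by array, relative to the mean of the 4 controls (white). Red is higher and blue lower, and colours stop at 4 in either direction. Tnn is at the floor in all 4 controls. The 2-week array of rat 27 is the lowest for Eci2, Commd6, Slc25a34, Acot2, Lrrc39, Asb18, Pank1 and Ppif. Another array is the lowest for Plin4, Mtfp1, Vtcn1, Impa2, Irs2 and Etv5.

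Among muscle and fibre-type transcription factors, of 35 genes tested, 8 were higher and 8 lower, and 5 and 6 of these were called under all 6 scalings. Both shares were 22.9%, near those of all genes, 20.5% higher and 21.6% lower. The list's median change was 0.18, and -0.14 with the arrays at a common median. Hdac4, a deacetylase that enters fibre nuclei when nerve activity drops and represses MEF2 targets, read 9.58, 43.01, 21.4 and 33.6 in controls and 48.6 to 141 (median 92.8) in short-term muscle. The 3-week array was the lowest of the 6 and lay close to control 2. The change was 1.94 ± 0.42 (limma adjusted p = 0.0018). Maf rose by 1.20, Vgll4, a cofactor of TEAD factors, by 1.08, and Mrtfa, an actin-regulated partner of serum response factor, by 1.03. Vgll2, a TEAD cofactor of skeletal muscle, read 3148, 3068, 3381 and 2316 in controls and 748 to 2237 (median 1160.2) after tenotomy. Its 3-week and 4-week arrays were the lowest and the change was -1.32 ± 0.25 (adjusted p = 6.8e-04). Eya1, a cofactor of the fast fibre programme, read 463, 331, 444 and 363 and 113 to 197 (median 155), a change of -1.38 ± 0.19. Prox1, a homeobox factor of slow fibres, fell by 0.76. Mef2d fell by 0.73 on the probe set used, while its other probe set changed by 0.54, and averaging over probe sets ended the call for Mef2d and for Prox1.

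Nuclear receptors had more lower than higher calls: of 28 genes tested, 2 were higher and 8 lower, and 1 and 6 of these were called under all 6 scalings. Their median change was -0.15, and 0.08 with controls of rats 61 and 62 alone. Rxrg, the retinoid X receptor enriched in muscle, read 405, 593, 418 and 427 in controls and 96.5 to 295 (median 153) in short-term muscle. Control 2 was the highest array and rat 27 the lowest. The change was -1.48 ± 0.26 (limma adjusted p = 4.6e-04). Nr0b2, a corepressor, fell by 1.34. All 3 estrogen-related receptors, which drive mitochondrial genes in muscle, were lower. Esrrb fell by 0.89. Esrra and Esrrg were chosen after their values were seen: Esrra fell by 1.07 with overlapping groups, and Esrrg by 0.66, a call that was lost under quantile normalization (adjusted p = 0.056), without control 1 (adjusted p = 0.054), with controls 2 and 3 alone (-0.48, adjusted p = 0.19) and when probe sets were averaged. Nr2c1, an orphan receptor, fell by 0.73 on the probe set used and by 0.02 when probe sets were averaged, which ended its call. Rarg, a retinoic acid receptor, was the member that rose under all 6 scalings. It read 26.01, 31.6, 21.01 and 30.3 and 41.4 to 124 (median 67.6), a change of 1.37 ± 0.33.

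Immediate early and AP-1 factors, which respond quickly to stretch or injury in many tissues, were higher at a share near the background: of 36 genes tested, 8 were higher and 2 lower, and 4 and 2 of these were called under all 6 scalings. That is 22.2% higher against 20.5% of all genes and 5.56% lower against 21.6%. Their median change was 0.05, or -0.27 at a common median. Without control 1 the count of higher genes was 3 and without control 3 it was 5. Klf5, a Krüppel-like factor, read 119, 117, 159 and 156 in controls and 374 to 493 (median 422) in short-term muscle. The short-term values lay close together, and the change was 1.64 ± 0.26 (limma adjusted p = 2.3e-04). Ier2, an immediate early gene, rose by 1.005. Etv5, an ETS factor induced by growth factor signalling and outside the lists, read 119.7, 217, 549 and 88.1 and 28.8 to 68.9 (median 47.4). Control 3 was far above the other controls. The change was -2.01 ± 0.42 (adjusted p = 0.0017), and -1.49 without control 3, still called. Its other probe set changed by -0.14.

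Mesenchymal and homeobox transcription factors rose more often than genes overall: of 39 genes tested, 19 were higher and 2 lower, and 12 and 1 of these were called under all 6 scalings. That is 48.7% higher against 20.5% of all genes, with a median change of 0.44. Shox2, a short stature homeobox factor of limb connective tissue, read 10.8, 23.4, 12.6 and 32.9 in controls and 64.5 to 317 (median 120.5) in short-term muscle. The highest values came from both 2-week arrays. The change was 2.91 ± 0.44 (limma adjusted p = 1.5e-04), and 1.04 at the weakest alternative run. Creb3l1, a membrane-bound factor of the endoplasmic reticulum that drives collagen secretion, read 51.1, 25.3, 25.3 and 22.5 and 58.3 to 379.9 (median 158). Control 1 was above the other controls and close to the 1-week array of rat 13. Its change was 2.36 ± 0.43 (adjusted p = 5.7e-04). Prrx2, a homeobox factor of mesenchyme, went from a mean of 49.7 to 179, and Pbx3, a partner of HOX proteins, from 61.3 to 204. Runx1 and Sox4 were chosen after their values were seen. Runx1, a factor known to rise in denervated muscle, read 109, 92.03, 316 and 239 and 302 to 1337 (median 705). The 3-week array lay below control 3, so the groups overlapped, and the change was 2.02 ± 0.40. Sox4 also overlapped and changed by 1.74 ± 0.34. Meis1 was the lower member named by the rule, with a fall of 0.57 that was lost without control 1 (adjusted p = 0.077) or without control 2 (adjusted p = 0.091).

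Of 37 immune and interferon transcription factors tested, 15 were higher and 7 lower, and 8 and 6 of these were called under all 6 scalings. The shares were 40.5% higher and 18.9% lower, against 20.5% and 21.6% of all genes. Under all 6 scalings they were 21.6% and 16.2% against 9.73% and 16.7%, so the lower calls were near the background. Of 12 interferon regulatory and STAT factors, 7 were higher and 1 lower. Irf5, Irf7 and Irf8 belong to the family that reads interferon and Toll-like receptor signals. Irf7 read 105, 77.1, 229 and 170.0 in controls and 251 to 1340.4 (median 380.0) in short-term muscle. The 1-week array of rat 12 stood far above the other 5, whose range was 251 to 443. The change was 1.70 ± 0.43 (limma adjusted p = 0.0051). Irf8, which directs macrophage development, read 45.1, 17.5, 46.9 and 36.5 and 116 to 328 (median 133), again with rat 12 at 1 week the highest. It changed by 2.15 ± 0.35. Irf5 was at the floor in controls 1, 3 and 4, read 18.1 in control 2 and 36.8 to 69.996 (median 54.1) in short-term muscle, a change of 2.20 ± 0.27. Tfec, a MITF-related factor of macrophages, rose by 1.92, a call lost with no floor (adjusted p = 0.054), and Irf1, chosen after its values were seen, by 1.20. Gata2, known from blood progenitors and endothelium, fell by 0.65. Macrophage markers rose beside these genes, as given above, and their part was not tested.

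**Figure D3:**
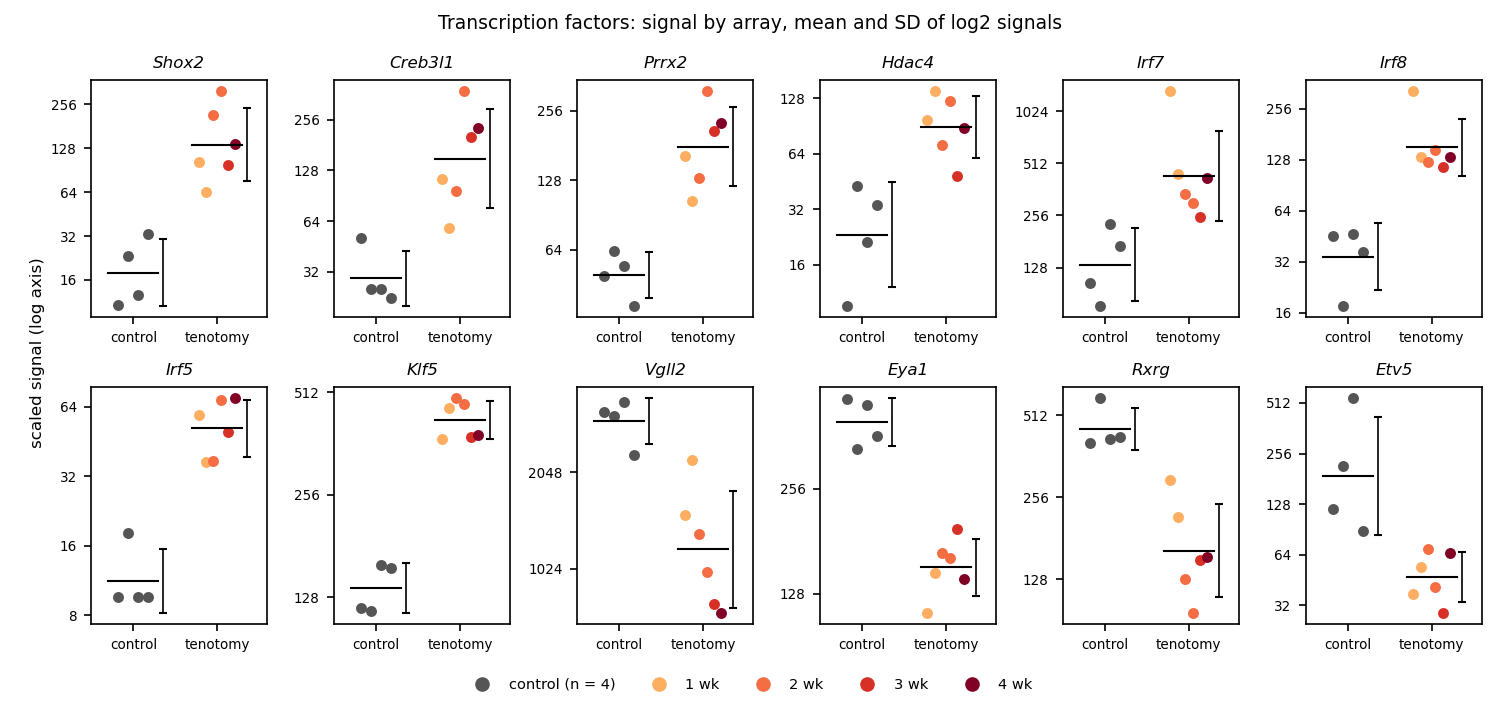
Scaled signal of 12 transcription factors by array on a log axis, controls in grey (n = 4) and tenotomized muscles coloured by week (n = 6), with the mean as a line and the SD of log2 signals as a bar. Shox2, Creb3l1, Prrx2, Hdac4, Klf5 and 3 interferon regulatory factors lie higher after tenotomy, and Vgll2, Eya1, Rxrg and Etv5 lower.

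Tap1 and Tap2 encode both chains of the pump that carries peptides into the endoplasmic reticulum for antigen presentation, and their promoters are known targets of interferon. Tap1 read 34.4, 39.9, 50.7 and 55.4 in controls and 79.9 to 189.8 (median 139) in short-term muscle, with the 3-week array the lowest of the 6. The change was 1.59 ± 0.23 (limma adjusted p = 1.3e-04), and 0.82 at the weakest alternative run. Tap2 changed by 1.16 ± 0.26. After these values were seen, 3 motifs were searched on both strands in the 250 bases before the gene start, in RefSeq promoters of GRCr8, for 135 of 175 named genes with a promoter in that table. The core of the interferon-stimulated response element, GAAA, any 2 bases, then GAAA, was in 34 of 831 promoters of genes higher under all scalings (4.09%), 28 of 1559 of genes lower (1.80%), 244 of 9256 of genes tested (2.64%) and 902 of all 27457 (3.29%). Named genes with a match were Adgre1, Irf7, Sema6a, Slc1a3, Tap1 and Tap2. The stretches around the match in 3 of these are shown because their genes act in the interferon response, with the match in capitals, 5′ to 3′ on the strand of the gene. All 3 genes lie on the minus strand, at chr1:205800038-205800137 for Irf7, chr20:4668610-4668709 for Tap1 and chr20:4652297-4652396 for Tap2.
Irf7: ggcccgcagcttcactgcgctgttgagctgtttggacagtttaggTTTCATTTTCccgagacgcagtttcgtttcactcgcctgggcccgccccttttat
Tap1: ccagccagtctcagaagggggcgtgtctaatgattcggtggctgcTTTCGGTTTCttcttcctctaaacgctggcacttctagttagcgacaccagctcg
Tap2: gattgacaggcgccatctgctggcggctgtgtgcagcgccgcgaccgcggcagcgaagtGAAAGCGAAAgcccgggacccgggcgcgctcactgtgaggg
The match began at base -69 from the start in Irf7, -121 in Tap1 and -41 in Tap2, and ran on the opposite strand in Irf7 and Tap1. The estrogen-related receptor element TCAAGGTCA was in 5 of 1559 promoters of lower genes and 18 of 9256 tested (0.321% and 0.194%). The lysosomal element TCACGTGA was in 19 of 1559 and 141 of 9256 (1.22% and 1.52%).

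For receptor tyrosine kinases, which carry growth factor signals, of 30 genes tested, 13 were higher and 2 lower, and 5 and 2 of these were called under all 6 scalings. Without the 4-week array 8 were higher. The list's median change was 0.54. Pdgfra, the PDGF receptor that marks fibro-adipogenic progenitors, read 394, 291, 324 and 332 in controls and 566 to 1077 (median 851) in short-term muscle. The lowest of the 6 was rat 13 at 1 week and the highest rat 42 at 4 weeks. The change was 1.28 ± 0.24 (limma adjusted p = 6.9e-04). Fgfr1, an FGF receptor, read 195, 214, 192 and 224 and 414 to 650.4 (median 464), a change of 1.27 ± 0.22. Erbb2, a partner in neuregulin receptors, read at most 19.5 in controls and rose by 1.74, and Pdgfrl, a PDGF receptor-like protein, by 1.84. The insulin receptor Insr went the other way. It read 469, 362, 447 and 505 in controls and 95.7 to 340.5 (median 223) in short-term muscle, where rat 27 at 2 weeks was the lowest and rat 13 at 1 week was just below control 2. The change was -1.14 ± 0.25 (adjusted p = 0.0021). Kdr, the main VEGF receptor of endothelium, read 747, 682, 636 and 723 and 359.6 to 538 (median 429), a change of -0.65 ± 0.14. Other endothelial markers are counted above.

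G protein-coupled receptors and their partners had the highest share of higher genes of the lists reported, 56.6% against 20.5% of all genes. Of 53 genes tested, out of 92 on the array, 30 were higher and 5 lower. Under all 6 scalings 15 and 4 of these were called, and on the deposited scale 15 were higher. Some members, such as Adgrl1, passed the filter through the short-term arrays alone, and the part of such genes in the share was not tested. The list's median change was 0.89, and it was at least 0.57 under each alternative run. Adra2a, the alpha-2A adrenergic receptor, which couples to inhibitory G proteins, read 20.3, 9.58, 24.9 and 14.1 in controls and 48.5 to 223 (median 117) in short-term muscle. The 1-week arrays were the lowest of the 6 and the 4-week array the highest. The change was 2.75 ± 0.40 (limma adjusted p = 1.2e-04). Adgre1, the F4/80 antigen of macrophages, read 41.6, 59.1, 35.1 and 26.8 and 94.2 to 280.4 (median 184), a change of 2.19 ± 0.41. Pth1r, the parathyroid hormone receptor, read 15.3, 23.1, 13.3 and 23.9 and 43.8 to 126 (median 70.4). It changed by 1.99 ± 0.36, while its other probe set changed by 0.25 and was not called. Adgrl1, a latrophilin, was at the floor in controls 1, 3 and 4 and rose to a mean of 49.5. Lpar1, a lysophosphatidic acid receptor, and F2r, a thrombin receptor, were chosen after their values were seen and rose by 1.65 and 1.55. Of the lower members, Ramp1, a subunit of the CGRP receptor, fell by 0.66. P2ry1, an ADP receptor, fell by 1.24, a call that was lost without control 1 (adjusted p = 0.051) or control 4 (adjusted p = 0.058).

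Among cytokine, Toll-like and TNF receptors, of 50 genes tested, 24 were higher and 5 lower, and 11 and 4 of these were called under all 6 scalings. Without control 3 or control 4 the lower genes numbered 3 and 2. The list's median change was 0.70. Of 9 interleukin-1 and Toll-like receptor genes 8 were higher and none lower. Tlr2, a receptor for microbial lipoproteins, read 18.1, 30.04, 19.8 and 9.58 in controls and 45.2 to 135 (median 74.01) in short-term muscle, with the 4-week array the highest. The change was 2.01 ± 0.39 (limma adjusted p = 8.7e-04). Tlr7, a sensor of single-stranded RNA, read 20.6, 18.7, 25.3 and 9.58 and 45.5 to 96.5 (median 58.5), a change of 1.86 ± 0.32. Both chains of the interleukin-17 receptor rose. Il17ra read 44.98, 58.9, 56.96 and 41.8 and 118 to 244 (median 162.7), a change of 1.77 ± 0.24 (adjusted p = 7.2e-05). Il17rc was at the floor in all 4 controls and read 27.4 to 67.6 (median 33.7) in short-term muscle, at least 4.01-fold higher. Socs6, a suppressor of cytokine and insulin signalling, fell by 0.79. Ifngr2, a chain of the interferon gamma receptor, fell by 0.39, which was lost without control 3 (-0.27, adjusted p = 0.077) and when probe sets were averaged.

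In the Wnt pathway, of 44 genes tested, 16 were higher and 2 lower, and 9 and 2 of these were called under all 6 scalings. Of 5 ligands tested none was higher and 1 was lower, too few to set against the 20.5% of all genes higher. The secreted inhibitors, of which 4 of 9 were higher and none lower, had the largest changes. Sfrp2, a secreted frizzled-related protein that binds Wnt ligands, read 29.1, 32.8, 15.9 and 13.05 in controls and 160.1 to 599 (median 259.6) in short-term muscle. The 3-week and 4-week arrays were the highest. The change was 3.84 ± 0.52 (limma adjusted p = 7.6e-05). Sfrp4, of the same family, read 321, 217, 121 and 175 and 913 to 3313 (median 1868), a change of 3.18 ± 0.47 (adjusted p = 1.3e-04), and Sfrp1, chosen after its values were seen, changed by 1.85 ± 0.32. At the weakest alternative run Sfrp4 changed by 1.55. Dkk3, a dickkopf-related protein, rose by 1.91 on the probe set used, while its other probe set changed by -0.61 and averaging ended the call. The receptor Fzd2 rose by 1.97. Rspo3, an R-spondin that strengthens Wnt signals, fell. It read 555, 924, 942 and 698 in controls and 132 to 301 (median 253) in short-term muscle, a change of -1.80 ± 0.26 (adjusted p = 1.3e-04).

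Notch and Hedgehog genes and axon guidance genes had more higher than lower calls, but few under all scalings. The shares higher were 31.25% and 32.4%, against 20.5% of all genes. Under all 6 scalings they were 6.25% and 8.82% against 9.73%, not above the background. For Notch and Hedgehog, of 32 genes tested, 10 were higher and 1 lower, and 2 and 1 of these were called under all 6 scalings. The median was 0.17, -0.15 at a common median, and 6 genes were higher without control 3. Boc, a Hedgehog co-receptor also known from myoblast fusion, read 171, 87.5, 122 and 217 in controls and 356 to 797 (median 577) in short-term muscle, a change of 1.95 ± 0.31 (limma adjusted p = 2.2e-04). Numbl, an inhibitor of Notch, rose by 1.13. For axon guidance, of 34 genes tested, 11 were higher and 1 lower, and 3 and 1 of these were called under all 6 scalings. The median was 0.28, and -0.05 under a stricter filter. Sema4d, a semaphorin, fell from 616, 662, 728 and 727 to 308 to 416 (median 322), a change of -1.02 ± 0.13 (adjusted p = 4.6e-05). Its relatives Sema4a and Sema6a rose by 1.24 and 1.07.

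**Figure D4:**
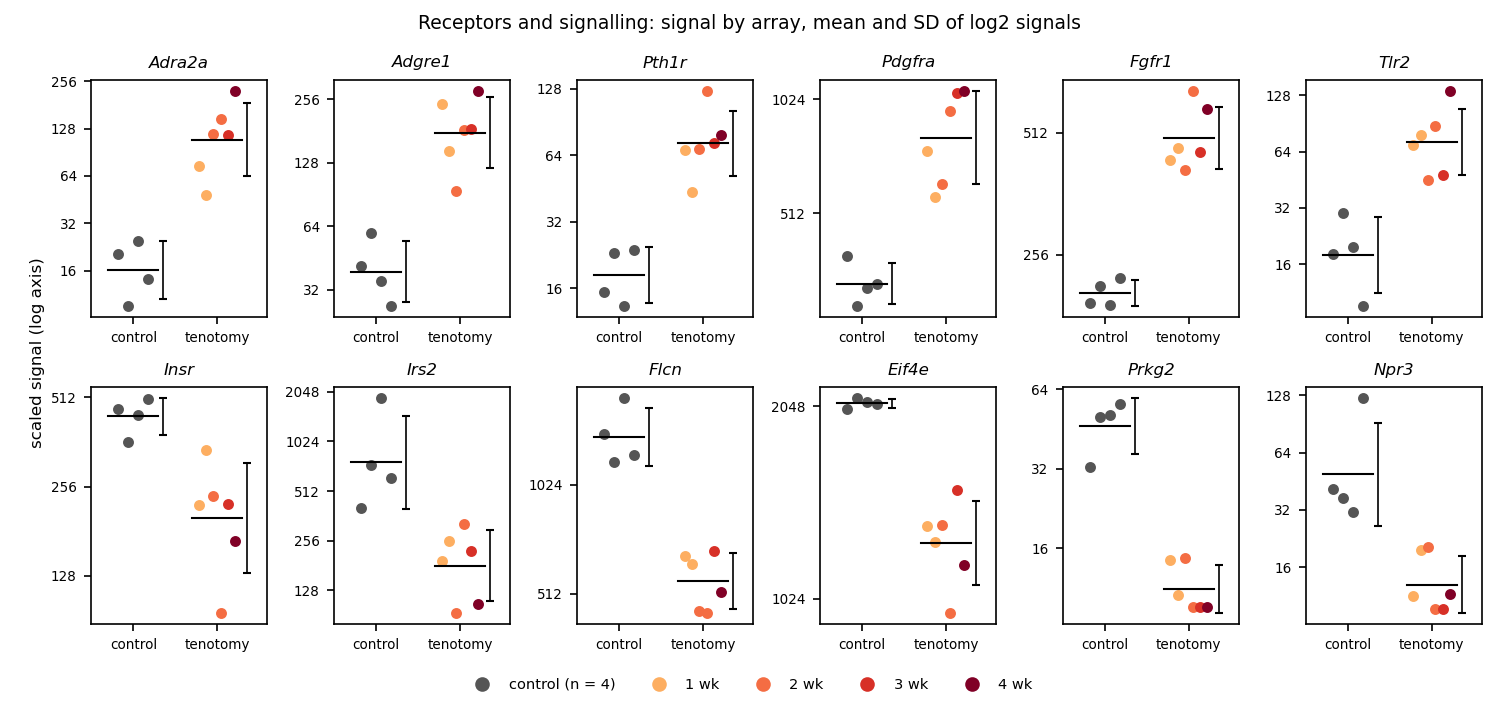
Scaled signal of 6 receptors that were higher (top) and of 6 receptor or signalling genes that were lower (bottom), by array on a log axis; controls are grey (n = 4), tenotomized muscles coloured by week (n = 6), lines are means and bars the SD of log2 signals. The controls of Eif4e lie close together at 2028 to 2109, while Irs2 has 1 control far above the rest.

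Downstream of the insulin receptor, lower genes outnumbered higher ones. In the list of PI3K, AKT, mTOR and AMPK signalling, of 61 genes tested, 6 were higher and 18 lower, and 2 and 10 of these were called under all 6 scalings. The share lower was 29.5% against 21.6% of all genes, but under all 6 scalings it was 16.4% against 16.7%, near the background. The median change was -0.24. Without control 3 the lower genes numbered 9, when 1904 of all genes were lower. Irs2, a docking protein of the insulin receptor, read 403, 739, 1876 and 614 in controls and 93.6 to 322 (median 207) in short-term muscle. Control 3 was far above the other controls. The change was -2.08 ± 0.43 (limma adjusted p = 0.0014), and with each array left out in turn it ran from -2.39 to -1.65. Flcn and Fnip1 encode folliculin and its partner, which act on the Rag GTPases that bring mTOR to the lysosome. Flcn read 1415, 1185, 1775 and 1236 and 454 to 672 (median 569), a change of -1.32 ± 0.14 (adjusted p = 2.1e-05). Fnip1 fell by 0.86, but its other probe set changed by 0.68 and averaging ended the call. Genes chosen after their values were seen were Mtor itself, which fell by 0.55, the Rag GTPase Rragd, which fell by 0.998 with overlapping groups, and Eif4ebp1, a repressor of cap-dependent translation, which fell by 1.02, also with overlapping groups. That last call was lost without control 2 (adjusted p = 0.062) or control 3 (adjusted p = 0.07). Eif4e, the cap-binding protein that Eif4ebp1 restrains, read 2028, 2109, 2076 and 2061 and 972 to 1516 (median 1293). It changed by -0.73 ± 0.11 on that probe set, and by -0.23 and 0.79 on its 2 others, so that averaging ended the call. Inpp5d and Inppl1, phosphatases that remove the product of PI3K, were the members higher under all 6 scalings. Inppl1 read 259, 225, 192 and 253 and 329 to 633 (median 482), a change of 0.96 ± 0.17, and Inpp5d, known from blood cells, rose by 1.09.

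MAPK pathway genes were lower in a larger share than genes overall: of 58 genes tested, 6 were higher and 18 lower, and 4 and 15 of these were called under all 6 scalings. Of 24 MAP kinases and their activators and targets, 1 was higher and 10 lower. Mapk12, the p38 gamma kinase abundant in skeletal muscle, read 1474, 1571, 1492 and 1444 in controls and 543 to 1052 (median 819) in short-term muscle. The controls lay close together, and the change was -0.95 ± 0.17 (limma adjusted p = 4.6e-04). Map2k6, which activates p38 kinases, read 241, 344, 267 and 436 and 113 to 214 (median 155), a change of -1.05 ± 0.19. Mapkapk2, a target of p38 chosen after its values were seen, fell by 0.73. Rps6ka2, a ribosomal S6 kinase downstream of ERK, read 664, 676, 772 and 818 and 283 to 408 (median 361), a change of -1.06 ± 0.14, and the phosphatase Dusp12 fell by 0.98. The small GTPases Rasl11b and Rap1b rose by 2.52 and 1.24 and the ERK phosphatase Dusp7 by 0.86.

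In cyclic nucleotide signalling, which relays adrenergic and natriuretic signals, of 50 genes tested, 10 were higher and 12 lower, and 1 and 11 of these were called under all 6 scalings. The shares, 20% higher and 24% lower, were near those of all genes, 20.5% and 21.6%. Under all 6 scalings they were 2% and 22% against 9.73% and 16.7%. The median change was 0.05, and -0.27 at a common median. Without the 4-week array 6 were higher. Prkg2, a cGMP-dependent kinase, read 32.5, 50.3, 51.1 and 56.03 in controls and was at or near the floor in short-term muscle, where the highest value was 14.7. The change was -2.05 ± 0.27 (limma adjusted p = 7.2e-05). Npr3, the clearance receptor of natriuretic peptides, read 41.1, 36.8, 31.002 and 124 and 9.58 to 20.4 (median 11.4). Control 4 was far above the rest. The change was -1.92 ± 0.46, and -1.48 without that control. Pde4d, a cAMP phosphodiesterase, read 543, 994, 1071 and 489 and 145 to 378 (median 218), a change of -1.68 ± 0.29. The catalytic and regulatory subunits of protein kinase A, Prkaca and Prkar2a, were chosen after their values were seen. They fell by 1.09 and 0.94, Prkaca with overlapping groups, and another probe set of Prkar2a changed by 0.14, so that averaging ended its call. Akap1, which anchors protein kinase A to mitochondria, fell by 1.15 on the probe set used, against -0.13 and 0.13 on its others, and averaging ended that call too.

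Calcium-dependent signalling genes were called in both directions: of 70 genes tested, 22 were higher and 10 lower, and 10 and 4 of these were called under all 6 scalings. The shares were 31.4% higher and 14.3% lower, against 20.5% and 21.6% of all genes. Without control 2 the lower genes numbered 4, and without control 1, control 4 or the 4-week array 5. The median was 0.29, and -0.03 at a common median. Of 19 S100 and annexin genes 10 were higher and 2 lower. S100a4, a calcium-binding protein known from fibroblasts and motile cells, read 535, 596, 529 and 990.2 in controls and 1026 to 4173 (median 2279) in short-term muscle. The 1-week array of rat 13 was close to control 4. The change was 1.76 ± 0.35 (limma adjusted p = 0.0012). Anxa1, an annexin with a role in resolving inflammation, read 712, 739, 818 and 638 and 1322 to 3217 (median 2304), a change of 1.56 ± 0.25, and S100a11 rose by 1.76. S100a1, the family member typical of striated muscle, fell. It read 589, 320.3, 345 and 618 and 161.5 to 291 (median 234), a change of -1.002 ± 0.22. Of 11 calcineurin genes none was higher and 4 were lower, 36.4% against 21.6% of all genes. Only 2 of the 11 were lower under all 6 scalings, a share near the 16.7% of all genes. Calcineurin is the calcium-activated phosphatase behind the slow fibre programme. Rcan2, its regulator, read 2403, 1693, 2154 and 2101 and 611 to 1342 (median 1109.6), a change of -1.05 ± 0.21 (adjusted p = 9.5e-04), and the catalytic subunit Ppp3cc fell by 1.07. Prkcb, a protein kinase C of blood cells, rose by 1.38.

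G proteins and their regulators were more often higher: of 45 genes tested, 17 were higher and 2 lower, and 7 and 1 of these were called under all 6 scalings. Without control 4 the higher genes numbered 11. Rgs18, a regulator of G protein signalling known from blood cells, read 34.3, 32.3, 28.4 and 32.5 in controls and 114 to 236 (median 151) in short-term muscle. The controls were tight and the 4-week array was the highest. The change was 2.27 ± 0.22 (limma adjusted p = 1.3e-05). Rgs10 changed by 1.86 ± 0.27, the G protein gamma subunit Gng2 by 2.04 ± 0.36 and Gna15, an alpha subunit of blood cells, by 1.69 ± 0.30.

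Turning to transport across membranes, potassium, sodium and chloride channels were called in both directions: of 57 genes tested, 12 were higher and 11 lower, and 6 and 10 of these were called under all 6 scalings. The shares, 21.1% higher and 19.3% lower, were near those of all genes, 20.5% and 21.6%. The median was 0.15, and -0.22 at a common median. Kcnj11, Abcc8 and Abcc9 encode the pore and the sulphonylurea receptor subunits of KATP channels, which open when cell energy is low. Abcc8 read 97.6, 69.9, 118 and 87.4 in controls and 34.98 to 52.1 (median 40.1) in short-term muscle, a change of -1.14 ± 0.19 (limma adjusted p = 3.0e-04). Abcc9, chosen after its values were seen, read 2213, 1799, 1927 and 2039 and 1003 to 1469.6 (median 1254), a change of -0.67 ± 0.12. Kcnj11 read 1102, 792, 1041 and 1121 and 329 to 732 (median 473), a change of -0.997 ± 0.20, with 1.10 and -0.84 on its other probe sets, so that averaging ended its call. Clcn4, a chloride and proton exchanger of endosomes, read 309.6, 311, 205 and 367 and 66.4 to 105 (median 83.4), a change of -1.81 ± 0.19 (adjusted p = 1.8e-05), and Kcnk2, a stretch-sensitive potassium leak channel, fell by 1.16. Kcnj15, an inward rectifier, rose. It was at or near the floor in controls, with 11.1 the highest, and read 33.5 to 133 (median 75.4) in short-term muscle, a change of 2.74 ± 0.35. Scn7a, a sodium-sensing channel known from Schwann cells, rose by 1.25, Clic1 by 1.47 and the leak channel Kcnk6 by 1.27, with 0.11 on its other probe set.

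For calcium, TRP and other cation channels of the surface and for connexins, of 36 genes tested, 11 were higher and 2 lower, and 6 and 1 of these were called under all 6 scalings. Without control 1 the higher genes numbered 7. The median was 0.17, and -0.13 at a common median. Gja1, connexin 43 of gap junctions, read 542, 841, 451 and 535 in controls and 1759.6 to 6910.2 (median 3706) in short-term muscle. The 2-week array of rat 27 was far the highest and rat 13 at 1 week the lowest of the 6. The change was 2.53 ± 0.31 (limma adjusted p = 4.1e-05), while its other probe set changed by 0.85, which did not pass (adjusted p = 0.079). Piezo1, a channel opened by membrane stretch, read 60.9, 61.6, 66.2 and 48.2 and 115 to 359.8 (median 183), a change of 1.76 ± 0.29 (adjusted p = 2.9e-04). Trpc6 was at the floor in all 4 controls and read 16.4 to 35.5 (median 27.5), at least 2.71-fold higher, and Trpv2 rose by 1.64. Both are cation channels of the TRP family with dim signals, and both calls were lost with the floor at the pooled 40th percentile. Cacna1e, a voltage-gated calcium channel, read 28.3, 27.4, 58.3 and 26.8 in controls and was at the floor on 5 of the 6 short-term arrays, a change of -1.69 ± 0.34.

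Among ion pumps and exchangers, of 39 genes tested, 11 were higher and 6 lower, and 4 and 4 of these were called under all 6 scalings. The shares were 28.2% higher and 15.4% lower, against 20.5% and 21.6% of all genes. The median was 0.03, and -0.29 at a common median. FXYD proteins are small regulators of the sodium pump, and they moved in opposite directions. Fxyd5, known from epithelial and leukocyte adhesion, read 93.8, 109, 128 and 121 in controls and 270.2 to 995 (median 479) in short-term muscle, a change of 2.18 ± 0.35 (limma adjusted p = 2.6e-04). Fxyd2 and Fxyd6 rose by 1.55 and 1.37. Fxyd1, phospholemman, the form of striated muscle, read 2539.6, 2706, 2599.9 and 2583 and 1183 to 2067 (median 1783), a change of -0.60 ± 0.14. Rat 12 at 1 week was the lowest. Slc4a7, a sodium bicarbonate cotransporter, read 1032, 715, 1097 and 827 and 309.8 to 461 (median 368), a change of -1.30 ± 0.16, against -0.04 on its other probe set. The phospholipid flippases Atp8a1 and Atp10d changed by -1.37 ± 0.28 and 1.32 ± 0.26.

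Nutrient and metabolite carriers had the highest share of lower genes under all scalings, 17 of 65 tested: of 65 genes tested, 20 were higher and 17 lower, and 10 and 17 of these were called under all 6 scalings. The median was 0.13, and -0.29 under a stricter filter. Of 18 sugar and lactate carriers 3 were higher and 8 lower, 16.7% and 44.4% against 20.5% and 21.6% of all genes. Slc16a1, the lactate carrier MCT1 of oxidative fibres, read 2937, 2707, 2643 and 2261 in controls and 600.4 to 1651 (median 835) in short-term muscle. The 3-week array was the highest of the 6. The change was -1.58 ± 0.23 (limma adjusted p = 1.3e-04), and -0.79 at the weakest alternative run. Slc16a7, the related MCT2, read 189, 195, 396 and 245 and 56.2 to 118 (median 62.4), a change of -1.75 ± 0.26. Slc2a4, the insulin-responsive glucose carrier GLUT4, was chosen after its values were seen. It read 3729, 3477, 3082 and 3551 and 1865 to 2832 (median 2128), a change of -0.62 ± 0.13, with -0.19 on its other probe set, and averaging ended the call. Slc19a2, a thiamine carrier, read 217, 201, 211 and 166 and 42.6 to 92.2 (median 64.7), a change of -1.60 ± 0.21 (adjusted p = 7.5e-05).

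Of 27 amino acid carriers 9 were higher and 6 lower. The shares were 33.3% and 22.2% against 20.5% and 21.6% of all genes, so the share lower was near the background. Slc38a1, a sodium-coupled carrier of glutamine, read 846, 691, 1276 and 769.7 in controls and 158 to 407 (median 302) in short-term muscle, a change of -1.60 ± 0.25 (limma adjusted p = 1.9e-04). Its other probe sets changed by -0.41 and -0.71. Slc3a2, the heavy chain shared by several amino acid exchangers, and Slc38a4 were chosen after their values were seen. Slc3a2 read 2143, 2139.9, 2409 and 1164 and 649 to 886 (median 721), a change of -1.37 ± 0.22, with control 4 far below the other controls, and Slc38a4 fell by 1.03. Slc1a3, a glutamate carrier, rose. It read 44.2, 40.6, 9.58 and 27.2 and 85.3 to 182 (median 128), a change of 2.26 ± 0.38. Slc1a5, a carrier of neutral amino acids, changed by 1.32 ± 0.30. Slc15a3, a lysosomal peptide carrier of immune cells, rose by 1.27, a call lost with no floor (adjusted p = 0.096).

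**Figure D5:**
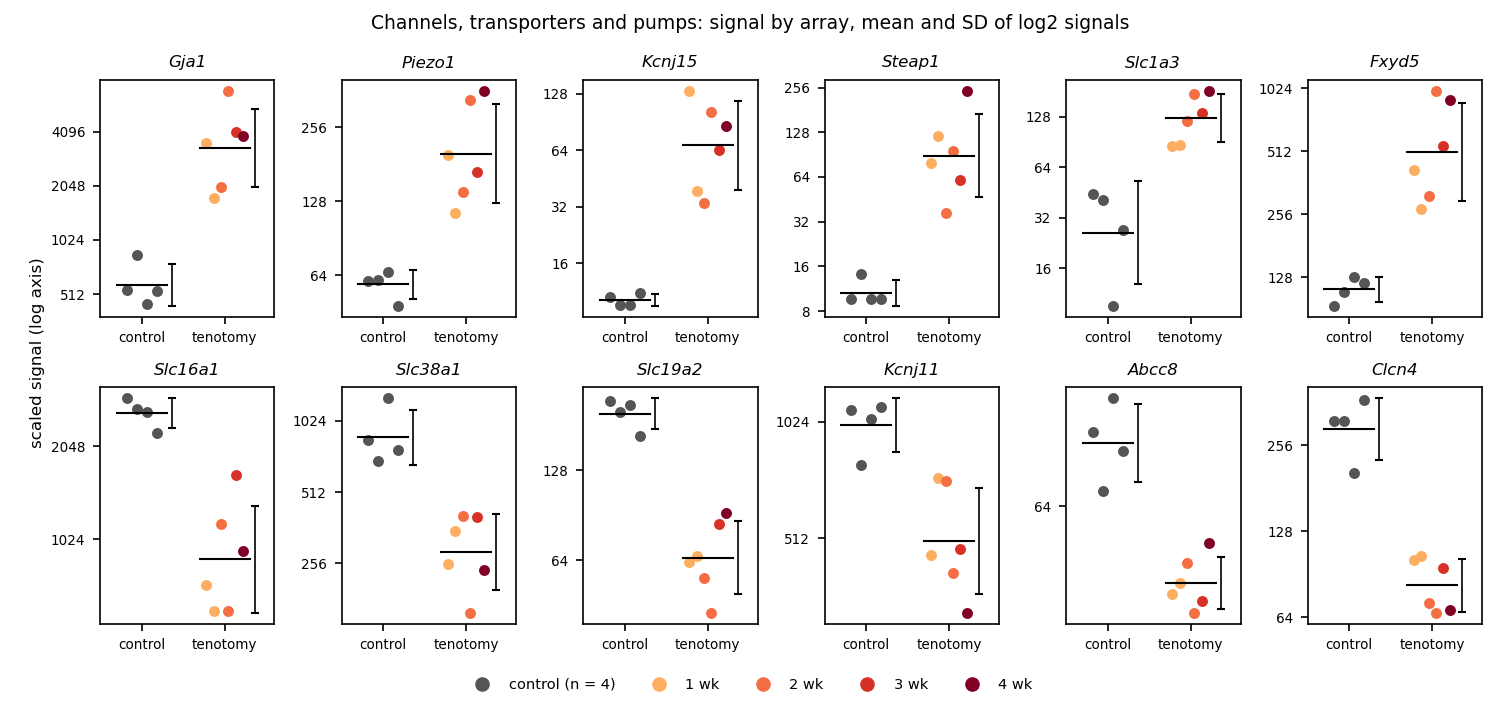
Scaled signal of 6 channel or carrier genes that were higher (top) and 6 that were lower (bottom), by array on a log axis; controls are grey (n = 4), tenotomized muscles coloured by week (n = 6), lines are means and bars the SD of log2 signals. Steap1 and Kcnj15 are at or near the floor of 9.58 in controls, and Gja1 is highest in a 2-week muscle.

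Metal transport genes were more often higher: of 34 genes tested, 12 were higher and 3 lower, and 8 and 3 of these were called under all 6 scalings. The list's median change was 0.42. Steap1 and Steap2 belong to a family of metalloreductases that reduce iron and copper. Steap1 was at the floor in controls 1, 3 and 4, read 14.2 in control 2 and 36.7 to 244 (median 88.2) in short-term muscle, a change of 3.08 ± 0.41 (limma adjusted p = 6.8e-05). Steap2 read 35.1, 14.4, 22.9 and 18.4 and 78.1 to 296 (median 136), a change of 2.70 ± 0.41 (adjusted p = 1.8e-04). For both, the 4-week array was the highest. The iron exporter Slc40a1, ferroportin, read 111, 80.3, 78.5 and 63.2 and 129.9 to 374 (median 242), a change of 1.41 ± 0.29. Genes chosen after their values were seen were Cp, ceruloplasmin, which oxidizes exported iron and rose by 1.51, and Tfrc, the transferrin receptor for iron uptake, which fell by 1.10 with overlapping groups and was not called without control 1 (-0.87, adjusted p = 0.057). The zinc importers Slc39a8 and Slc39a6 rose by 1.76 and 1.67. The magnesium carriers Slc41a1 and Slc41a3 fell. Slc41a1 read 471, 501, 478 and 316 and 113 to 219 (median 166), a change of -1.38 ± 0.19, and Slc41a3 read 447, 462, 692 and 443 and 117 to 246 (median 177), a change of -1.51 ± 0.23.

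Aquaporins and ABC transporters gave calls in both directions: of 24 genes tested, 7 were higher and 4 lower, and 4 and 4 of these were called under all 6 scalings. The shares were 29.2% higher and 16.7% lower, against 20.5% and 21.6% of all genes. Neither of the 2 aquaporins tested was called. The cholesterol exporters Abca1 and Abcg1, known targets of liver X receptors, rose. Abca1 read 79.4, 81.2, 57.3 and 135 in controls and 158 to 394 (median 198) in short-term muscle, a change of 1.48 ± 0.31 (limma adjusted p = 0.0015), with 3.03, 1.20 and 3.48 on its other probe sets. Abcg1 changed by 1.48 ± 0.25, with 0.84 and 0.30 on its other probe sets. Abcd2, a carrier of very long chain fatty acids into peroxisomes, fell from a mean of 179.6 to 65.7, Abca8a from 1873 to 1000.2 and the mitochondrial transporter Abcb10 from 648 to 373.

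Genes of the secretory pathway and of glycosylation, which prepare proteins for export, were the largest list: of 104 genes tested, 47 were higher and 6 lower, and 17 and 5 of these were called under all 6 scalings. The share higher was 45.2%, and on the deposited scale 17 genes were higher. Kdelr3, a receptor that returns chaperones to the endoplasmic reticulum, read 123, 78.1, 83.6 and 90.5 in controls and 269 to 1076 (median 549) in short-term muscle. Rat 27 at 2 weeks was the highest and rat 13 at 1 week the lowest of the 6. The change was 2.49 ± 0.37 (limma adjusted p = 1.5e-04). Tmed3, a cargo adaptor of transport vesicles, read 104, 102, 103 and 81.6 and 230.4 to 775 (median 434), a change of 2.17 ± 0.30. Sec61a1, the pore through which new proteins enter the reticulum, changed by 1.72 ± 0.32, and its partner Sec61b and the folding enzyme Pdia3, both chosen after their values were seen, by 1.37 ± 0.26 and 1.61 ± 0.17. Chpf, a chondroitin polymerizing factor, rose by 1.97. Herpud1, which serves the degradation of misfolded proteins, read 2004, 1643, 2071 and 1249 in controls and 679 to 789 (median 773) in short-term muscle. The short-term values were tight, and the change was -1.19 ± 0.14 (adjusted p = 3.2e-05). Derl1, of the same degradation route, fell by 0.43, against -0.17 and 0.37 on its other probe sets, and averaging ended the call. Magt1 and Srp54a fell by 1.04 and 0.46. Magt1 lost its call without control 3 (adjusted p = 0.052), and Srp54a without control 4 (adjusted p = 0.06) and when probe sets were averaged.

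In retinoid, steroid and prostanoid metabolism, of 53 genes tested, 18 were higher and 6 lower, and 13 and 5 of these were called under all 6 scalings. Crabp2, which carries retinoic acid to its receptors, read 44.2, 40.8, 57.2 and 55.5 in controls and 146 to 733 (median 494) in short-term muscle. The values of rats 27, 32 and 42 lay close together above the others. The change was 3.03 ± 0.55 (limma adjusted p = 6.0e-04). Rbp4, the retinol carrier of plasma, went from a mean of 32.3 to 193, a change of 2.58 ± 0.52. Rarres2, which encodes chemerin, a chemoattractant, read 358, 324, 266 and 287 and 927 to 1880.1 (median 1705), a change of 2.28 ± 0.31 (adjusted p = 7.6e-05). Stra6, the cell receptor for Rbp4, was dim and fell by 0.91, a call lost when any of the 4 controls or the 4-week array was left out (adjusted p up to 0.059). Members of the sterol route were chosen after their values were seen. Sqle and Cyp51 rose by 2.26 and 1.45, and Fdft1, the step before Sqle, fell by 1.03 with overlapping groups. Ptgs1, a cyclooxygenase also chosen after its values were seen, rose by 1.34, while Ptges2, a prostaglandin E synthase, fell by 1.12, Ephx1, an epoxide hydrolase, by 1.15 and Hsd17b4, an enzyme of peroxisomal fatty acid breakdown, by 0.56.

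Many large changes had no gene symbol. Of 31099 probe sets 9780 carried none in the annotation used, and of 4893 such probe sets tested 934 were higher (19.1%) and 651 lower (13.3%), with 455 and 545 called under all 6 scalings. Probe set 1373628_at read 178, 90.4, 121 and 171 in controls and 636 to 1946 in short-term muscle, a change of 2.94 ± 0.40. Probe set 1373487_at read 21.3, 28.7, 16.2 and 14.7 and 75.4 to 459, a change of 3.43 ± 0.49, with rats 13 and 25 the lowest of the 6. Probe set 1382882_x_at read 24.7, 39.9, 71.2 and 179 in controls and 193 to 3012 in short-term muscle, a change of 3.19 ± 0.65. Its control 4 was close to the 4-week array, and rat 27 was far above the next highest array, at 832. Probe set 1376685_at changed by 3.08 ± 0.46 and 1383589_at by 3.04 ± 0.44. In 1376685_at the 4-week array was the lowest of the 6, and in 1383589_at rat 27 was the highest. The largest falls were in 1383644_at, with a change of -2.74 ± 0.43, and 1377721_at, which read 1930.3, 2429, 2413 and 2786 in controls and 189 to 861 in short-term muscle, a change of -2.62 ± 0.32. Its 1-week array of rat 12 was the lowest and its 4-week array the highest. Falls of -2.51 ± 0.26, -2.32 ± 0.45 and -2.24 ± 0.37 were found for 1394020_at, 1380813_at and 1378135_at.

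Of genes known by a locus number, LOC100909539 read 51.8, 73.2, 63.99 and 59.1 in controls and 135 to 398 (median 258) in short-term muscle, a change of 2.02 ± 0.26 (limma adjusted p = 5.8e-05). LOC102550325 read 1798, 1875, 1643 and 1708 and 601 to 984 (median 668), a change of -1.29 ± 0.14. LOC102546992 and LOC102547113 fell by 1.41 and 0.62.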

How the data were processed

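Total RNA of whole soleus was labelled with biotin and hybridised to Affymetrix rat genome arrays, with each muscle on its own array. The authors deposited MAS5 signals, per the submitters' processing notes, a linear intensity per probe set, with version, scaling target and build not given in the sources used here. Signals were taken to log2. Each array was shifted so that its median probe set among those brighter than 21.8, the 40th percentile over all arrays, on 4 or more arrays was level with the others, floored at the pooled 25th percentile (9.58) and filtered at the 40th. Deposited, common-median, 75th-percentile, 2% trimmed-mean and quantile scalings were alternatives. All 57 control probe sets were left out. Of the others 20826 had 1 symbol in the platform annotation (20758 updated through RefSeq, GRCr8), 436 several and 9780 none. The probe set of highest mean stood for each of 14217 genes, of which 11090 were tested. The comparison used limma 3.58.1 (R 4.3.3) on all 14 arrays, with a mean per group, an intensity trend and Benjamini-Hochberg adjustment over all genes. The fit was tested on simulated data. It treats arrays as independent, although rats 61 and 62 gave 2 each. Depth does not apply to arrays, and the number of arrays limits the precision. The p-values measure only the spread between these arrays. Correlations between pairs of arrays were 0.85 to 0.94. The fold given for a gene at the floor in all controls is against the floor.

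The members and lists were chosen with earlier results of these data known. The 25 lists name 1637 genes, of which 1434 were on the array and 1180 tested. The results of 1 list and of 1 gene among the largest falls are not reported here. Genes named were, outside the lists, the 15 with the largest change in each direction among those called under all 6 scalings, with groups that did not overlap and a mean of the higher group above the 75th percentile (180 in signal), leaving out genes whose symbol matched a fixed list of names and patterns: common matrix genes, macrophage markers, myosins and troponins, core mitochondrial enzymes, and other genes already singled out in earlier results of these data. Related genes outside those patterns, such as Tnn, Mfap2 and Eci2, stayed in. In each list they were up to 4 such genes per direction with no limit on the mean, and of probe sets without a symbol and of locus-numbered genes up to 5 per direction. Any other gene is said to have been chosen after its values were seen.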

Additional observations from a re-analysis of the deposited data

Results flagged for a closer look

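In the following groups the highest or the lowest array lay apart from the rest by Dixon's criterion, which chance alone meets in about 1 in 20 groups. The control and the short-term group of each of 202 genes were searched, so chance alone would give about as many cases as are listed. Short-term muscle of rat 27 at 2 weeks was the lowest of its group for Eci2 (84.0), Asb18 (98.6), Atp8a1 (119) and Magt1 (61.9). Rat 12 at 1 week was the highest for Irf7 (1340.4) and Irf8 (328) and the lowest for Fxyd1 (1183).

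Among controls, control 1 was the highest for Creb3l1 (51.1) and the lowest for Atp8a1 (636). Control 2 was the highest for Rxrg (593). Control 3 was the highest for LOC102546992 (547), Cacna1e (58.3) and Slc41a3 (692) and the lowest for Rasl11b (9.58). Control 4 was the lowest for Slc41a1 (316), Tmed3 (81.6) and Slc3a2 (1164).

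In 5 further cases each other array of the group was at the floor of 9.58, so that any value above it had to meet the criterion and the rate above does not apply. These were control 2 for Irf5 (18.1), Adgrl1 (11.7), Trpv2 (14.5) and Steap1 (14.2), and the 3-week array for Cacna1e (14.4).

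The poly-A spike-ins, which no comparison used, read 82.5 to 309 on the short-term arrays, all above the highest control at 72.6. The long-term arrays read 64.8 to 103. The part of this difference in the results was not tested.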

How the results depend on the processing

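Of 202 genes chosen by the naming rule or after their values were seen, 165 were called under each alternative that tested them, 37 lost the call under 1 or more and none changed sign. Of the 26 alternatives all tested 176 of the genes, 25 tested another 25 genes and 24 tested Stra6. Of these 9 lost it when 1 array was left out and 15 when probe sets were averaged. Some genes that kept the call throughout had a much smaller change at the weakest alternative. Among them it was 1.55 for Sfrp4, 1.04 for Shox2, 0.96 for Prrx2 and 0.82 for Tap1. For Slc1a3, Steap2 and Slc16a1 it was 1.02, 1.40 and -0.79. The counts depended on the scaling: with a common median 1362 genes were higher and 4383 lower, and on the deposited scale 1103 were higher. Among probe sets without a symbol, 568 were higher and 1327 lower with a common median, and 491 were higher on the deposited scale. They also depended on the controls. With those of rats 61 and 62 alone 1324 genes were higher and 1419 lower, and with controls 2 and 3 alone 1549 were lower, with fewer arrays in the fit. Genes that lost their call only with such a pair of controls were Esrra, Fdft1, Fxyd6, LOC102547113, Ramp1, Sema6a and Tap2 with rats 61 and 62, Esrrb, Mtor, Npr3 and S100a1 with controls 2 and 3, and Rragd with either pair. Leaving out 1 array at a time gave 1894 to 2431 genes higher and 1904 to 2517 lower. With the rat as a random block (correlation 0.44) 2401 were higher and 2549 lower, and without the 1-week arrays 2471 and 2464. No paired analysis was possible because the groups shared no rat, and replicate numbers only follow the order of deposit. Signals near the floor, as for Trpc6 and Trpv2, limit what can be said of dim genes.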
